A study of Danio rerio with 6 samples.

Results

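The genes described here are the nuclear genes of the oxidative phosphorylation complexes I to V in zebrafish larvae, taken by their symbols (the beginnings nduf, sdha to sdhd, uqcr, cox4 to cox8, cycs, cyc1 and atp5). Of 25859 genes in the count files, 111 carried such a symbol, and 108 of them had at least 10 counts in 3 pools. The other 3 were cycsa, with 0 counts in every pool, ndufa4l2b, with 4 to 7 counts, and ndufa9b, whose counts were 0, 0 and 7 in the controls against 9, 9 and 11 in the knockouts. All 108 had 10 counts or more in every pool, so none entered through 1 group alone. They were 37 genes of complex I, 5 of complex II, 9 of complex III, 23 of complex IV, 18 of complex V and cycsb, the cytochrome c gene. The symbols also took 8 assembly factors of complex I (NDUFAF) and 4 of complex II (SDHAF), which are not subunits of the finished complexes, the ATP synthase inhibitor genes atp5if1a and atp5if1b, and COX7A2L, a factor that joins complexes III and IV. The NDUFA4 genes are counted with complex IV, where the protein resides despite its name.

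Oxidative phosphorylation is carried out in the inner mitochondrial membrane by complexes I to IV, which pass electrons to oxygen while all but complex II pump protons, and by complex V, the ATP synthase, which uses the proton gradient. Electrons travel from complex III to complex IV on cytochrome c, a small soluble protein that also triggers apoptosis once released into the cytosol. Most subunits are encoded in the nucleus, made in the cytosol and imported into mitochondria, and a few hydrophobic subunits are encoded by mitochondrial DNA. The matrix chaperonin HSP60, the product of hspd1, folds imported proteins together with its co-chaperonin HSP10, and the catalytic beta subunit of the ATP synthase was among its early known substrates in yeast.

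RNA was sequenced from zebrafish larvae at 5 days post fertilization. The controls were hspd1+/+ larvae and the knockouts hspd1-/- larvae from the same kind of mating, an in-cross of heterozygous hspd1+/- carriers, so the mothers of both groups carried 1 knockout allele. Each group has 3 pools of 5 larvae, anesthetized with tricaine, genotyped from the tip of the tail fin and pooled without it, and the labels name no further treatment. The pools came from 3 mating sets, but the labels do not say whether pools with the same number share one, and p-values measure the spread between pools. Values of single pools are listed in the order of pools 1, 2 and 3.

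Libraries held 18517874 to 20331675 counts, and 1.09% to 1.25% of them fell on the 108 genes. Levels are given as CPM, a gene's counts relative to a library size adjusted by TMM, which trims extreme genes before libraries are matched. Fold changes are knockout over control, and a gene is said to have risen or fallen only at an edgeR quasi-likelihood adjusted p under 0.05. The targeted gene hspd1 measured 124, 133 and 132 CPM in the controls against 73.4, 67.9 and 82.3 CPM in the knockouts, and it fell by 0.79 on the log2 scale (SE 0.11, edgeR adjusted p = 0.00162). Over all 21602 genes tested, 317 rose and 549 fell, or 415 and 476 with upper-quartile scaling. Markers of the digestive organs were lower in the knockouts. The summed level of 11 exocrine pancreas genes, all of which fell, was 4512 to 7692 CPM in the controls against 1411 to 1645 CPM in the knockouts, and that of 11 hepatocyte genes, of which 9 fell, was 10321 to 12341 CPM and 3689 to 5670 CPM. Of 14 fast muscle genes none passed (edgeR; 0 also without adjustment, with DESeq2 and with limma-voom), with sums of 58281 to 70853 CPM and 57976 to 70783 CPM. Of 7 enterocyte genes 5 fell, with sums of 2837 to 4391 CPM and 1689 to 2359 CPM. In larvae taken whole, fewer cells of a type and less RNA per cell cannot be told apart.

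Transcripts of the respiratory complexes differed little in level between the genotypes. Of the 108 genes 1 passed the test, cycsb, which rose, and none fell, so 0.926% were called against 4.01% of all genes tested (1.47% higher and 2.54% lower). Without adjustment, at a p under 0.05, 4 were higher and 5 lower, or 8.33% against 15.6% of all genes (6.79% higher and 8.81% lower). DESeq2 called cycsb higher and cox4i1l lower, and limma-voom called cycsb alone. The 3 knockout values stood apart from the 3 control values for 17 of the 108 (12 higher and 5 lower), or 15.7% against 21.4% of all genes (10.8% higher and 10.6% lower). The median log2 fold change was 0.055 over the 108 genes and −0.0057 over all genes. With single pools left out the former ranged from 5.18e-05 (without knockout pool 1) to 0.12 (without control pool 2).

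The intervals show how large a difference the pools could hide. For 88 of the 108 genes (81.5%) the whole 95% interval of the log2 fold change lay between −0.5 and 0.5, as it did for 49.6% of all genes tested, and for 105 it lay between −1 and 1. The exceptions at the wider bound were cox4i1l, SDHD ENSDARG00000055712 and COX7A2 ENSDARG00000110700, with 85, 10 and 70 counts in their lowest pool. The median standard error of the fold change was 0.12 among the 108 genes and 0.15 over all genes.

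**Figure D1:**
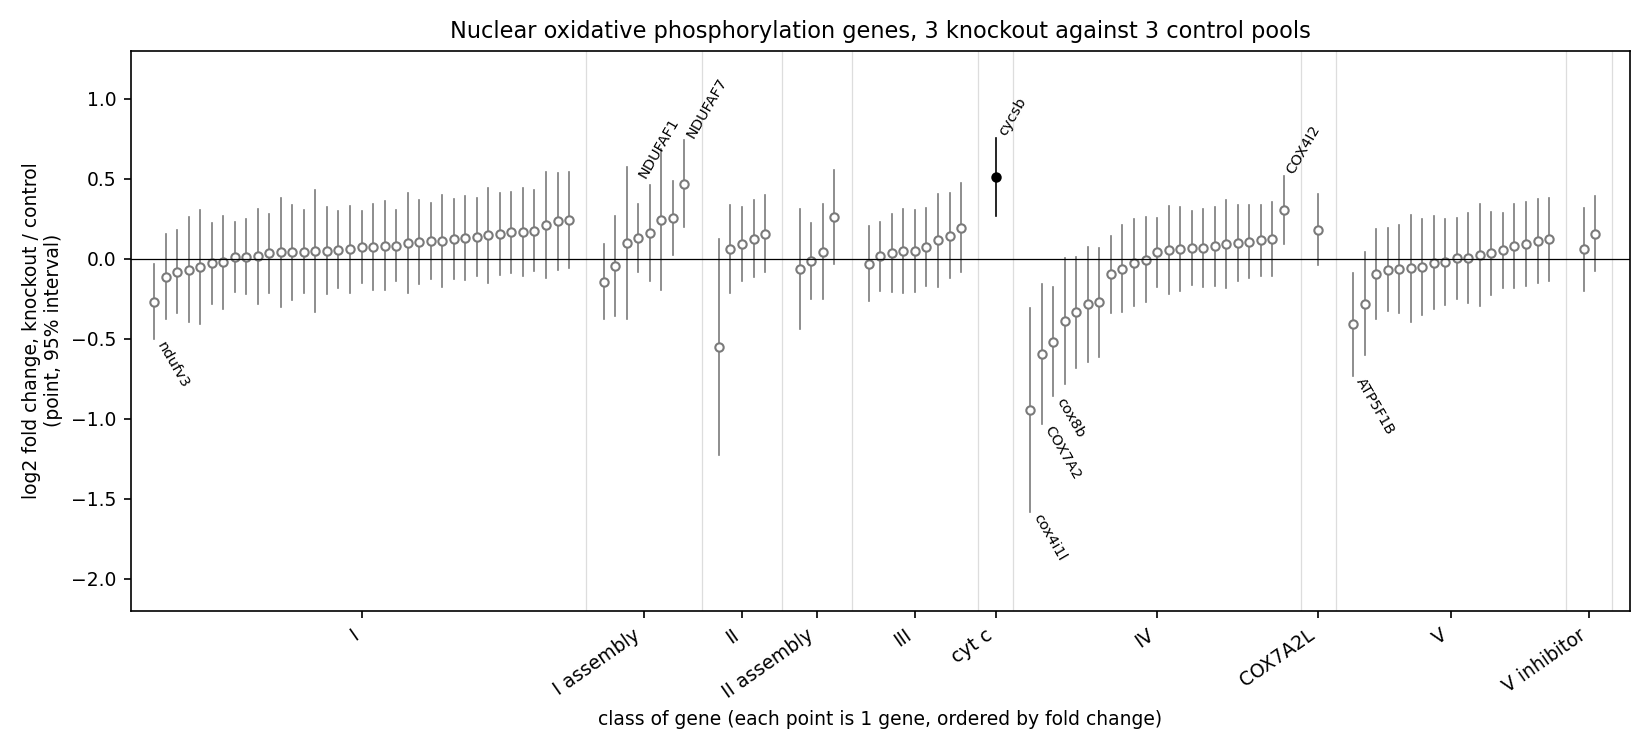
Log2 fold change (knockout over control, vertical axis) of each of the 108 genes with its 95% interval, arranged by complex along the horizontal axis and ordered by fold change within it. The filled point, cycsb, is the 1 gene past the adjusted threshold, genes at an unadjusted p under 0.05 carry their names, and the spread is widest in complex IV, from −0.95 to 0.30.

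Cytochrome c was the gene that rose. The level of cycsb (ENSDARG00000044562) was 204, 230 and 239 CPM in the controls against 325, 295 and 338 CPM in the knockouts. Every knockout pool was above every control pool. The means were 224 ± 18.3 CPM and 320 ± 22.0 CPM, a log2 fold change of 0.51 (SE 0.11, 95% interval 0.26 to 0.76, edgeR adjusted p = 0.0272), or 1.42-fold. Its fold change ranged from 0.46 to 0.57 when single pools were left out. It did not pass the edgeR test without control pool 1, 2 or 3 or without knockout pool 2 or 3 (adjusted p from 0.0599 to 0.0919), and passed without knockout pool 1 (0.0485).

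Complex I, the NADH dehydrogenase, showed no called gene among its 37 (edgeR; 1 lower without adjustment, DESeq2 and limma-voom 0). Among the subunits of its catalytic core, NDUFS8 had a log2 fold change of −0.080 (95% interval −0.34 to 0.18) and NDUFS7 one of 0.18 (95% interval −0.080 to 0.43), both iron-sulfur proteins. The 30 accessory subunits ranged from −0.27 to 0.24. The lowest was ndufv3, an accessory subunit of the NADH-binding module, at 76.0, 87.4 and 73.4 CPM in the controls against 66.7, 67.8 and 62.1 CPM in the knockouts. All of its knockout pools were below all control pools, with a log2 difference of −0.27 (95% interval −0.50 to −0.031, edgeR adjusted p = 0.2502). The highest was NDUFA6, at 0.24, where the groups overlapped (37.1 to 47.6 CPM against 43.1 to 57.1 CPM, edgeR adjusted p = 0.440).

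The assembly factors of complex I had a median log2 fold change of 0.15, with 6 of 8 above 0 and none past the test (edgeR; 2 higher without adjustment, DESeq2 and limma-voom 0). NDUFAF7, an assembly factor with methyltransferase activity, was at 6.60, 6.88 and 6.88 CPM in the controls against 9.49, 8.88 and 9.83 CPM in the knockouts. Its groups were well separated, at a log2 difference of 0.47 (SE 0.12, edgeR adjusted p = 0.0667). Of 14 other settings it passed in 1, upper-quartile scaling (edgeR adjusted p = 0.0454), and adjusted p ranged up to 0.179. That scaling also moved the median log2 fold change of all genes from −0.0057 to 0.043. NDUFAF1, an early assembly factor, stood at 32.8 ± 2.32 CPM and 39.2 ± 2.50 CPM, also without overlap (log2 difference 0.26, adjusted p = 0.261). At the other end was NDUFAF5, which modifies a core subunit, at −0.14.

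Complex II, the succinate dehydrogenase, and complex III, the cytochrome c reductase, had no called gene. None passed with edgeR, with or without adjustment, and DESeq2 and limma-voom called 0. The flavoprotein subunit gene SDHA was at 160 to 183 CPM in the controls against 177 to 192 CPM in the knockouts, and SDHB, the iron-sulfur subunit, had the highest fold change of complex II, 0.16 (95% interval −0.083 to 0.40). Of 2 genes with the symbol SDHD, a membrane anchor, ENSDARG00000030139 was at 0.060, and ENSDARG00000055712 had few counts, at 0.761, 0.873 and 0.9001 CPM in the controls against 0.519, 0.679 and 0.525 CPM in the knockouts (log2 difference −0.55, 95% interval −1.22 to 0.12). Complex III ranged from −0.031 for UQCRFS1, the Rieske iron-sulfur protein, to 0.19 for UQCRC1, a core protein. UQCRC1 was at 135, 174 and 175 CPM in the controls against 200.1, 175 and 178 CPM in the knockouts, groups that touched without overlap. CYC1, the cytochrome c1 gene, was at 165 ± 17.0 CPM and 171 ± 15.8 CPM, a log2 difference of 0.048. COX7A2L, the factor joining complexes III and IV, was at 60.7 ± 1.152 CPM and 68.9 ± 5.12 CPM, with no overlap between groups (log2 difference 0.18, edgeR adjusted p = 0.435).

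In complex V, the ATP synthase, the lowest values were in the catalytic head. No gene of its 18 passed (edgeR; 1 lower without adjustment, DESeq2 and limma-voom 0), and the median log2 fold change was −0.010. These were the genes of its alpha and beta subunits. ATP5F1B, the catalytic beta subunit, was at 1071, 943 and 833 CPM in the controls against 592, 759 and 792 CPM in the knockouts. All knockout pools lay below the lowest control pool, and the log2 difference was −0.41 (SE 0.14, 95% interval −0.73 to −0.089, edgeR adjusted p = 0.186). ATP5F1A, the alpha subunit, was at 977, 857 and 789 CPM in the controls against 584, 765 and 808 CPM in the knockouts. Its groups overlapped, because knockout pool 3 was above control pool 3, at a log2 difference of −0.28 (95% interval −0.60 to 0.041, edgeR adjusted p = 0.397). Neither passed under any of 14 other settings, where adjusted p ranged from 0.0718 to 0.379 for ATP5F1B and from 0.296 to 0.691 for ATP5F1A.

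ATP5F1C, the gamma subunit of the head, was at 266 ± 22.9 CPM and 288 ± 30.2 CPM (log2 difference 0.11, 95% interval −0.15 to 0.37). The 4 peripheral stalk genes, among them ATP5PB with the highest value of the complex (0.12), ranged from 0.0033 to 0.12, and the 3 genes of the proton-carrying c ring from −0.026 to 0.078. Of the inhibitor genes, whose proteins block the synthase from running in reverse, atp5if1a was at 0.058 and atp5if1b at 0.16. The summed level of the 5 head genes was 2298 ± 190 CPM in the controls against 1918 ± 199.96 CPM in the knockouts, and that of the peripheral stalk genes 881 ± 68.7 CPM and 924 ± 80.3 CPM. Most of the head sum came from ATP5F1A and ATP5F1B, with control means of 874 and 949 CPM. The head genes ATP5F1D and atp5f1e were at −0.070 and −0.096, with overlapping groups.

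**Figure D2:**
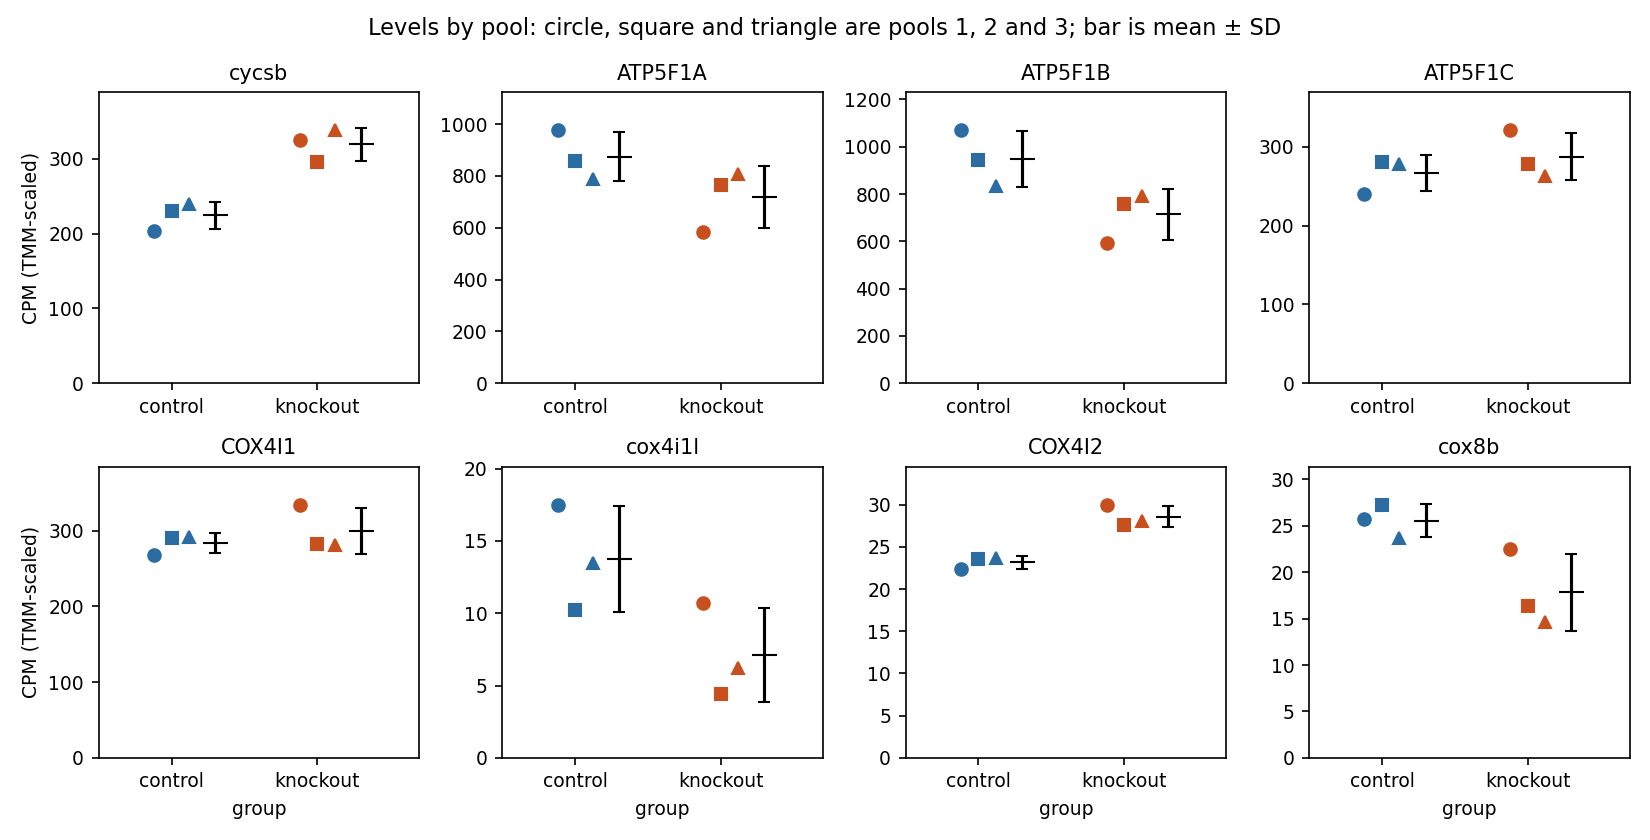
Levels in CPM (vertical axes, from 0) of 8 genes in each pool, controls in blue and knockouts in orange, with the mean and SD beside each group. cycsb, COX4I2, cox8b and ATP5F1B have no overlap between groups, while ATP5F1A, ATP5F1C, COX4I1 and cox4i1l overlap.

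Complex IV, the cytochrome c oxidase, had the widest spread of the complexes. Of its 23 genes, 7 had a log2 fold change under −0.25 and 1 above 0.25, against 4 under −0.25 of the 69 genes of the other complexes. The share between −0.25 and 0.25 was 65.2% in complex IV, near the 70.5% of all genes tested. None passed with edgeR, limma-voom called 0, and DESeq2 called cox4i1l lower. Without adjustment, by edgeR at a p under 0.05, 1 was higher and 3 lower, or 17.4%, near the 15.6% of all genes. All 7 belong to families with more than 1 copy in zebrafish, as do 20 of the 23 genes. In mammals several of these subunits come as isoforms of muscle, lung or most other tissues.

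The cox4 genes code for the regulatory subunit 4, and cox4i1l had the lowest fold change of the 108 genes. COX4I1, the widely expressed form in mammals, was at 268, 291 and 292 CPM in the controls against 335, 283 and 281 CPM in the knockouts, with a log2 difference of 0.078. Its copy cox4i1l was at 17.5, 10.21 and 13.4 CPM in the controls against 10.7, 4.44 and 6.20 CPM in the knockouts. The groups overlapped, since knockout pool 1 was just above control pool 2, and the log2 difference was −0.95 (SE 0.29, 95% interval −1.58 to −0.31, edgeR adjusted p = 0.116). It passed under 3 of 14 other settings, among them DESeq2 (adjusted p = 0.0120) and without knockout pool 1 (edgeR adjusted p = 0.0126, at −1.37). Adjusted p ranged up to 0.304 over the 14, and the log2 difference from −1.37 to −0.69 with single pools left out. COX4I2, the form of lung and low oxygen in mammals, was at 22.3, 23.5 and 23.7 CPM in the controls against 30.0, 27.6 and 28.1 CPM in the knockouts. All its knockout pools were above the controls, with a log2 difference of 0.30 (SE 0.10, edgeR adjusted p = 0.135).

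Among the small membrane subunits, copies of a family had unlike values. The gene cox8b, named for a form of heart and muscle in mammals, was at 25.7, 27.3 and 23.7 CPM in the controls against 22.5, 16.4 and 14.6 CPM in the knockouts. The groups did not overlap (log2 difference −0.52, SE 0.15, edgeR adjusted p = 0.104), whereas cox8a stood at 0.068. The pair of COX7A2 genes gave 0.059 for ENSDARG00000053217 and −0.60 for ENSDARG00000110700, whose level was 6.67 ± 1.12 CPM in the controls against 4.40 ± 1.05 CPM in the knockouts, without overlap (edgeR adjusted p = 0.153). cox7a1, the form of heart and muscle in mammals, was at 6.57 to 7.53 CPM and 4.15 to 6.64 CPM (log2 difference −0.39, adjusted p = 0.331).

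Of the NDUFA4 genes, NDUFA4 was at 223 ± 3.69 CPM and 242 ± 19.5 CPM and NDUFA4L2 at 19.2 ± 0.955 CPM and 20.8 ± 0.623 CPM. ndufa4b was at 198, 170 and 188 CPM in the controls against 195, 122 and 140 CPM in the knockouts. Here knockout pool 1 lay within the control range and the other knockout pools below it (log2 difference −0.29, edgeR adjusted p = 0.449). The 2 genes with the symbol cox6a1 were at −0.0053 (ENSDARG00000022438) and −0.34 (ENSDARG00000054588, 95% interval −0.68 to 0.013, edgeR adjusted p = 0.341). The third gene with the symbol COX5B, ENSDARG00000113254, was at −0.27 (95% interval −0.61 to 0.068, edgeR adjusted p = 0.446). For ENSDARG00000054588 and ENSDARG00000113254 the groups overlapped, at control means of 9.97 and 6.46 CPM.

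Leaving out single pools changed the calls. With any pool other than knockout pool 1 left out, 0 of the 108 genes passed. Without knockout pool 1, cox8b (−0.72, edgeR adjusted p = 0.00862), ndufa4b (−0.51, 0.0446) and COX7A2 ENSDARG00000110700 (−0.81, 0.0478) passed as well as cox4i1l. In that setting 5 of the 108 passed, 4 lower and 1 higher. Over all genes 826 passed in it, 487 lower and 339 higher. With all pools 866 of 21602 passed (4.01%), 549 lower and 317 higher. Markers of red blood cells were also lower in knockout pools 2 and 3 than in knockout pool 1. Of 9 erythroid genes 5 fell (55.6%, against 2.54% of all genes lower). The summed level of the 9 was 1347, 1352 and 1523 CPM in the controls against 1275, 700.45 and 809 CPM in the knockouts. The fast muscle sum was 70783, 57976 and 66975 CPM in knockout pools 1, 2 and 3. Of 5 slow muscle genes none passed (edgeR; 1 higher without adjustment, DESeq2 and limma-voom 0). Of 8 heart genes 1 rose (12.5%, against 1.47% of all genes higher), myh6 ENSDARG00000090637 (log2 fold change 0.59, edgeR adjusted p = 0.0328). Without adjustment 3 of the 8 heart genes were higher and 0 lower at a p under 0.05, or 37.5% against 15.6% of all genes. The part of any of these cell types in the levels of these genes was not tested.

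A change in the ratio between paralogues, taken within each pool, cancels library scaling and gene length. Of 24 pairs among 33 genes, 11 had no overlap between the 3 knockout and the 3 control ratios, 9 of the 16 pairs in complex IV and 2 of the 8 pairs elsewhere. With 3 against 3 pools the exact two-sided permutation test cannot go below 0.1, which these 11 pairs reached, and the adjusted value over the 24 pairs was 0.218. Many pairs share a gene, so the counts are not of independent pairs. The share without overlap among ratios of other genes was not computed, so the counts have no like background. Among single genes tested it was 21.4%.

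The log2 ratio of COX4I1 to cox4i1l was 3.93, 4.82 and 4.43 in the controls against 4.95, 5.96 and 5.48 in the knockouts, a mean difference of 1.07. That of cox4i1l to COX4I2 moved by −1.30, from −0.79 ± 0.42 to −2.08 ± 0.57. The ratio of cox8a to cox8b was 2.81, 2.99 and 3.13 in the controls and 3.27, 3.73 and 3.77 in the knockouts, a difference of 0.61. The ratio of the COX7A2 genes, ENSDARG00000053217 over ENSDARG00000110700, was 3.36 ± 0.076 and 4.02 ± 0.23, a difference of 0.66, and that of NDUFA4 to ndufa4b was 0.27 ± 0.11 and 0.70 ± 0.26.

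Outside complex IV, the ratio of NDUFAB1 to ndufab1b, both genes of the mitochondrial acyl carrier protein, was 0.53 ± 0.087 in the controls and 0.75 ± 0.13 in the knockouts, and that of the SDHD genes, ENSDARG00000030139 over ENSDARG00000055712, was 5.85 ± 0.027 and 6.39 ± 0.38, the latter resting on few counts. Also without overlap, in complex IV, were COX4I1 to COX4I2 (difference −0.23) and cox7a1 to COX7A2 ENSDARG00000053217 (−0.47). So were COX5B ENSDARG00000015978 to COX5B ENSDARG00000113254 (0.31) and cox6a1 ENSDARG00000022438 to COX6A1 ENSDARG00000054588 (0.34). The other 13 pairs overlapped, among them the c ring genes atp5mc1, ATP5MC3 and atp5mc3b (differences −0.044 to −0.091). Others were the genes of membrane subunit e, atp5mea and atp5meb (−0.029), UQCRC2 and uqcrc2a (0.061), and NDUFA4 and NDUFA4L2 (0.0057). Similar copies may share reads, which would blur such ratios.

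**Figure D3:**
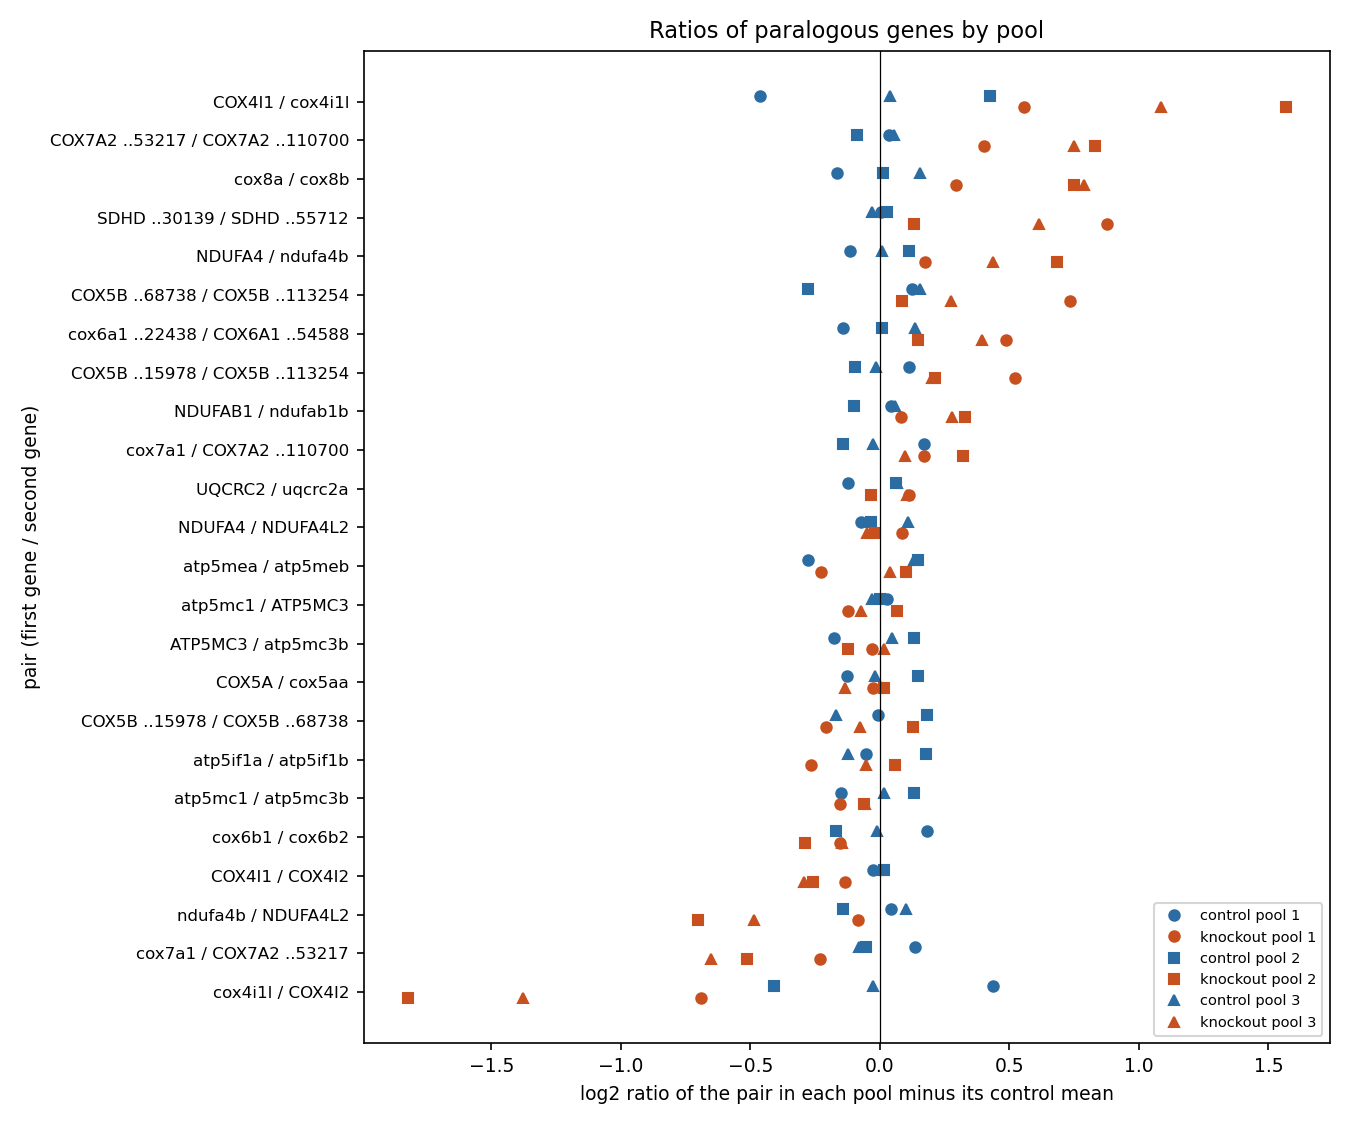
Log2 ratio of each paralogue pair in each pool minus the mean of its 3 control pools (horizontal axis), for 24 pairs ordered by the difference between groups, with the last digits of the gene ID where a symbol is shared. Orange knockout points stand clear of the blue control points in 11 pairs, with the largest shifts for pairs that hold cox4i1l.

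The 108 genes varied together between pools. Control pool 1 was the lowest control for 86 of them (79.6%, against 38.5% of all genes tested), knockout pool 1 was the highest knockout for 87 (80.6%, against 35.2%), and 73 showed both (67.6%, against 19.1%). In complex I 32 of 37 genes showed both. The median of complex I, as log2 CPM relative to the control mean, was −0.14, 0.090 and 0.047 in the controls against 0.20, 0.026 and −0.0060 in the knockouts. The knockout pools 2 and 3 thus lay inside the range of the controls, and the same held in complexes III, IV and V except that knockout pool 3 was below the controls in complex IV (−0.078 against −0.053 to 0.090). In complex II all knockout pools were above control pool 1, and knockout pool 3 was above every control.

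The opposite order within each group had control pool 1 as the highest control and knockout pool 1 as the lowest knockout. It was seen in 3 of the 108 genes (2.78%, against 22.5% of all genes): ATP5F1A, ATP5F1B and CYC1. For CYC1 these were not the extremes of all 6 pools. Markers of neurons had a similar order. The summed level of the 5 neuron genes tested, of which none passed (edgeR; 0 also without adjustment, DESeq2 and limma-voom 0), was 1881, 1589 and 1482 CPM in the controls against 1029, 1442 and 1577 CPM in the knockouts. The highest and the lowest pool were thus the same as for both head subunits, and what this order has to do with them was not tested.

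**Figure D4:**
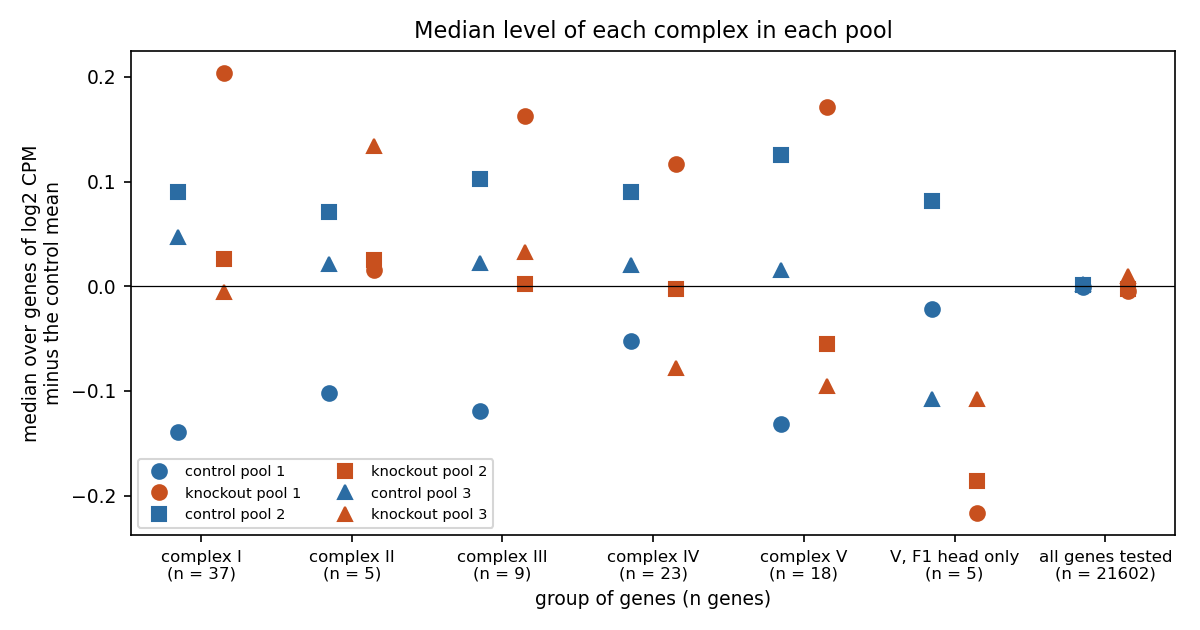
Median over the genes of each complex of log2 CPM minus the control mean (vertical axis), for each pool (circle, square and triangle for pools 1, 2 and 3, controls blue, knockouts orange). Control pool 1 is lowest and knockout pool 1 highest in complexes I, III and V, while the median of the 5 ATP synthase head genes is lowest in knockout pool 1. Of these 5 genes, 2 have the same order within each group as complexes I, III and V, and 2, ATP5F1A and ATP5F1B, the opposite order. The medians of all genes tested lie between −0.0044 and 0.0099.

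Other genes that serve the same complexes were taken as lists. Of 52 assembly factors outside the symbols above, 3 rose (5.77%, against 1.47% of all genes higher) and none fell (edgeR; 0 lower without adjustment, with DESeq2 and with limma-voom), with a median log2 difference of 0.099. All 3 are known from complex IV in yeast or mammals, as are many other genes of the list, whose share was not counted. higd1a, a small membrane protein induced by low oxygen in mammals that binds complex IV, rose from 17.2 ± 0.469 CPM to 39.1 ± 3.91 CPM (log2 fold change 1.18, SE 0.11, edgeR adjusted p = 1.08e-04). cox17, the copper chaperone of the oxidase, was at 19.0, 21.3 and 19.9 CPM in the controls against 31.5, 29.9 and 30.9 CPM in the knockouts, a log2 fold change of 0.62 (SE 0.098, edgeR adjusted p = 0.00469). pet100, an assembly factor of the oxidase, rose by 0.71 (SE 0.13, adjusted p = 0.0124), from 9.24 ± 0.505 CPM to 15.1 ± 2.03 CPM.

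The subunits encoded by mitochondrial DNA were described by 13 genes, of which 2 rose (15.4%, against 1.47% of all genes higher). These were MT-ATP6 (0.59, edgeR adjusted p = 0.0335) and mt-atp8 (0.56, adjusted p = 0.0338), both of the ATP synthase. Without adjustment, at a p under 0.05, 46.2% of the 13 passed, against 15.6% of all genes. The other 11 ranged from −0.38 for MT-CO1 to −0.15 for mt-nd4l, none past the edgeR test (4 lower without adjustment, DESeq2 1 and limma-voom 0).

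Genes upstream of the chain and its regulators were also taken as lists. Of 21 genes of pyruvate dehydrogenase and the citric acid cycle, 1 fell (4.76%, against 2.54% of all genes lower), and the median log2 fold change was 0.0068. It was SUCLG2, a succinate-CoA ligase subunit, from 131 ± 18.4 CPM to 91.4 ± 4.67 CPM (log2 fold change −0.52, edgeR adjusted p = 0.0405). Of 22 genes of coenzyme Q synthesis and electron entry none passed (edgeR; 3 higher and 0 lower without adjustment, DESeq2 1 higher and limma-voom 0), with a median of 0.11. Of 12 regulators of mitochondrial biogenesis none passed (edgeR; 0 higher and 1 lower without adjustment, DESeq2 and limma-voom 0), with a median of −0.073. Of 12 targets of the hypoxia factor HIF none passed either (edgeR; 4 higher and 2 lower without adjustment, DESeq2 and limma-voom 0), with a median of 0.16. By edgeR, 6 of these 12 had an unadjusted p under 0.05, a larger share than the 15.6% of all genes tested. Without adjustment DESeq2 gave 4 higher and 1 lower, and limma-voom 3 higher and 1 lower.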

How the data were processed

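Per the labels' protocols, RNA of 6 larval pools was sequenced as non-stranded, poly(A)-selected, paired-end libraries. The authors deposited estimated counts for each gene, all of them whole. FastQC, Trim Galore, Salmon, DESeq2 and the build GRCz11 are named per the submitters' processing notes. Their roles and versions are not given in the sources used here. Gene IDs were matched to symbols in a reference table (23598 of 25859 genes), in capitals for 76 of the 108 genes; 9 of the 108 share a symbol and are printed with their ID. Reads of similar copies or overlapping genes may be misassigned.

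Genes were kept by filterByExpr (21602), scaled by TMM (factors 0.970 to 1.03) and tested with edgeR 4.0.16 in R 4.3.3 (quasi-likelihood, genotype as the only term, Benjamini-Hochberg over all genes tested). Standard errors were derived from the fold change and the F statistic. Log values were taken with a prior count of 2. The edgeR fit was checked on simulated data. DESeq2 1.42.0, limma 3.58.1 (voom), other scalings, filters and thresholds, a replicate block and each pool left out were alternatives.

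The members, the gene lists and the pairs were chosen with earlier results of these data known. Genes named are those past the threshold, the extremes of each complex and the paralogues; pairs whose last letter names a different subunit (SDHA and SDHB, ATP5F1A and ATP5F1B, COX5A and COX5B) were not paired. No sequences or positions are given. The values of 1 gene are not reported here.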

Additional observations from a re-analysis of the deposited data

How the results depend on the processing

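The number of the 108 genes past the threshold was 1 in the analysis reported, 2 with upper-quartile scaling (2 higher, NDUFAF7 and cycsb), 2 with DESeq2 (1 higher and 1 lower) and 0 at an adjusted p of 0.01, and 0 to 5 with single pools left out (0 to 1 higher and 0 to 4 lower). Over all genes, 444 passed an adjusted p of 0.01 (156 higher and 288 lower), and 549 to 981 passed with single pools left out (189 to 346 higher and 360 to 635 lower). The share of higher genes among all calls was 36.6%, and 46.6% with upper-quartile scaling. With the replicate number as a block 1 of the 108 genes passed, 0 higher and 1 lower: cox4i1l (−0.99, edgeR adjusted p = 0.00669), while cycsb did not (0.0706). Deviations of same-numbered pools from their group means correlated across genes at −0.20, 0.10 and −0.074, so the numbers were not taken as pairs, and control pools 1 and 3 each correlated best with a knockout pool of another number. Differences close to 0 changed sign. With upper-quartile scaling UQCRFS1 was at 0.020 and cox6a1 ENSDARG00000022438 at 0.045, and the latter was at 0.0042 with no filter. With single pools left out, log2 differences ranged from −0.0092 to 0.14 for COX4I1, −0.0083 to 0.16 for COX7A2 ENSDARG00000053217, −0.032 to 0.12 for CYC1, −0.18 to 0.00085 for NDUFS8, −0.059 to 0.16 for SDHD ENSDARG00000030139, −0.094 to 0.031 for UQCRFS1, −0.0027 to 0.18 for atp5if1a, −0.071 to 0.077 for cox6a1 ENSDARG00000022438 and −0.22 to 0.042 for ndufab1b. Ratio differences ranged from −0.14 to 0.020 for ATP5MC3 to atp5mc3b, −0.11 to 0.023 for COX5A to cox5aa, −0.14 to 0.037 for COX5B ENSDARG00000015978 to COX5B ENSDARG00000068738, −0.035 to 0.060 for NDUFA4 to NDUFA4L2, −0.0019 to 0.11 for UQCRC2 to uqcrc2a, −0.16 to 0.0013 for atp5if1a to atp5if1b and −0.17 to 0.069 for atp5mea to atp5meb. The medians of complexes IV and V changed sign with single pools left out (−0.020 to 0.077 and −0.081 to 0.082). Those of complexes I, II and III stayed above 0, at 0.010 to 0.14, 0.081 to 0.13 and 0.0015 to 0.13, so those of I and III came close to 0. SDHD ENSDARG00000055712 gave no value with a filter of 1 CPM. The cause of these changes was not tested. With 3 pools per group, differences in genes such as cox4i1l are known only within wide intervals.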
